A study of Mus musculus with 34 samples.

Results

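The 8 genes described here, *Pax2*, *Pax8*, *Hnf4a*, *Lhx1*, *Sox4*, *Sox9*, *Tfcp2l1* and *Gata3*, encode transcription factors that build or maintain the nephron and the collecting duct. They were chosen by name, as factors of the kidney epithelium, with earlier results of these data known. All 8 were found among the 23509 genes counted in every library. Each of them passed the filter on low counts. Kidney mRNA of 34 C57BL6 mice was sequenced on postnatal day (P) 28. *Pkd2*-KO mice received RGLS4326 (n = 11) at 20 mg per kg body weight or PBS (n = 11) by subcutaneous injection on P10, P11, P12 and P19, and untreated non-transgenic (UNT) mice of the same age and strain (n = 12) were not dosed. RGLS4326 is a chemically modified oligonucleotide that inhibits the microRNA miR-17. The genotype, spelled Pdk2KO in the labels and written Pkhd1/cre;Pkd2 F/F in the study, combines floxed *Pkd2* alleles with a Cre recombinase under the *Pkhd1* promoter. This promoter is active in kidney tubules, chiefly the collecting duct, so that other kidney cells keep *Pkd2*. PBS and RGLS4326 groups shared this deletion and differed in the agent injected. The PBS group follows the labels, whereas the study describes fewer PBS-treated *Pkd2*-KO mice in its RNA-seq comparison beside a control oligonucleotide group that is not analysed here, so the make-up of the PBS group is uncertain to that extent.

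The nephron forms from mesenchymal progenitors, which turn into epithelium under *Pax2* and *Pax8*, and it joins a collecting duct system that grows from the ureteric bud. Along the finished tubule each segment keeps its own regulators, *Hnf4a* in the proximal tubule and *Gata3* and *Tfcp2l1* in the distal tubule and collecting duct. *Sox4* and *Sox9* are active while the nephron forms, and *Sox9* is known to be switched on again in tubule cells that repair themselves after injury. These counts come from whole kidneys, in which fewer cells of a type and less RNA per cell cannot be told apart.

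The libraries held 17603122 to 54981992 reads assigned to genes. *Pkd2* itself spanned 220 to 338 CPM (read counts scaled to a common library size) in UNT kidneys, 98.0 to 215 in PBS-treated kidneys and 170 to 237 in RGLS4326-treated kidneys, so that PBS and UNT groups did not overlap. They differed in the share of reads that fell in no gene, called the no-gene share here. It was 9.84% to 11.3% in UNT, 5.17% to 9.0% in PBS and 4.94% to 12.0% in RGLS4326 libraries. In the RGLS4326 group 4 libraries, at 11.3% or more, stood apart from the other 7, at 8.92% or less, and treatment results of the members and gene lists are also given without them. Names of the deposited tables number the libraries in 3 series, each with 3 or 4 mice of every group, and 3 of those 4 libraries were all the RGLS4326 libraries of series 2.

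In PBS-treated *Pkd2*-KO kidneys, 7 of the 8 factors differed from UNT kidneys. *Sox9*, *Sox4*, *Gata3*, *Pax8* and *Pax2* were higher, *Hnf4a* and *Lhx1* were lower, and *Tfcp2l1* did not pass the test. A gene was called at an adjusted p under 0.05 in the quasi-likelihood test of edgeR. In the same comparison 82.1% of all 15644 tested genes were called, 43.1% higher and 39.0% lower, so a count of 7 of 8 lies near the background. The median absolute log2 fold change was 1.18 for the 8 genes and 0.60 for all tested genes. The 8 genes were chosen with earlier results of these data known, so this difference describes the list and is no test of it. Groups did not overlap for 5 of the 8 genes, *Sox4*, *Sox9*, *Gata3* and *Pax8* above and *Hnf4a* below, against 42.5% of all tested genes.

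**Figure D1:**
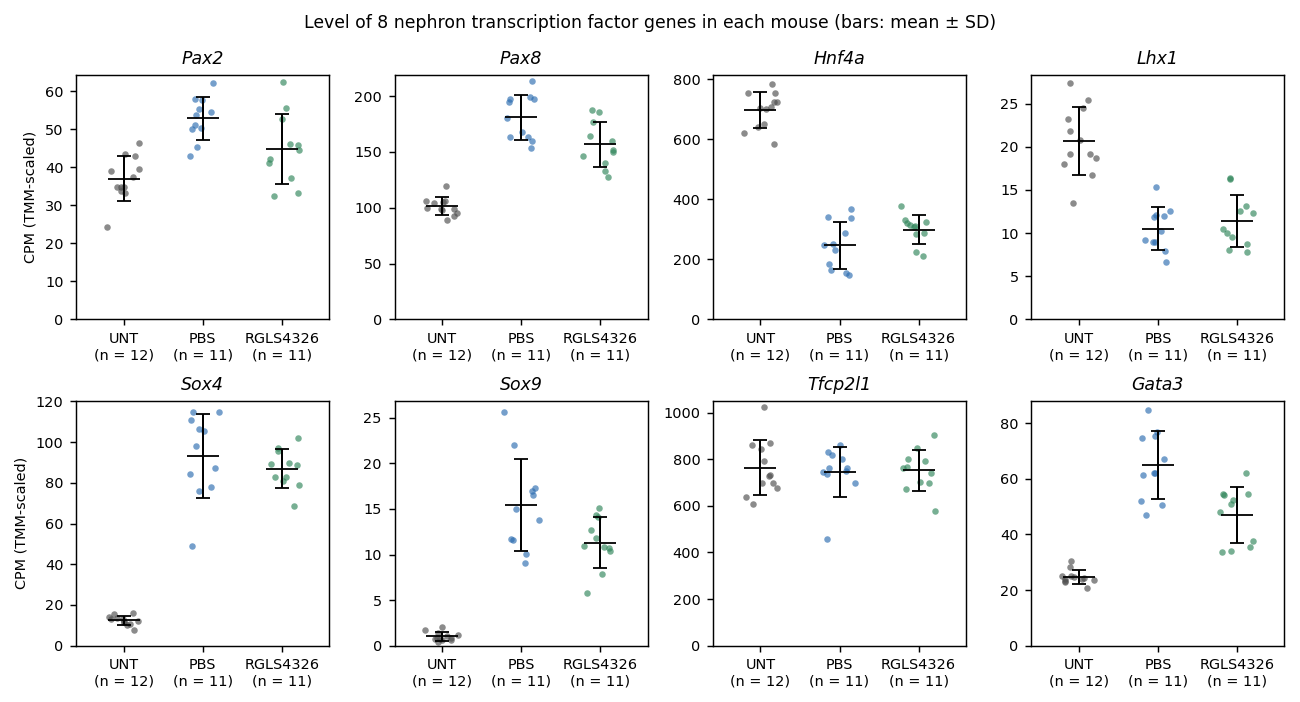
CPM of each gene (y axis, from 0, scaled by TMM) in UNT (n = 12), PBS (n = 11) and RGLS4326 (n = 11) kidneys, where points are mice and black bars are the mean ± SD. For *Sox4*, *Sox9*, *Pax8* and *Gata3* every *Pkd2*-KO mouse lies above every UNT mouse, for *Hnf4a* every one lies below, and for *Tfcp2l1* the 3 groups overlap.

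*Pax2* and *Pax8* encode paired box proteins that commit mesenchyme to an epithelial fate and persist in the adult collecting duct and, for *Pax8*, along the tubule. *Pax2* (chr19:44756045-44837871, plus strand, GRCm38) had 24.3 CPM in the lowest, 36.1 in the median and 46.4 in the highest UNT mouse. In the PBS group the same values were 42.8, 53.6 and 62.0 CPM. The ranges overlapped, with 9 of 11 PBS-treated mice above the highest UNT mouse. The log2 fold change was 0.51 (SE 0.095, adjusted p = 8.4e-06), and it fell to 0.13 (adjusted p = 0.31), no longer called, when the no-gene share entered the fit as a covariate. That share and the groups are largely confounded, since no PBS library reached the UNT range. Within library series 1, 2 and 3 the log2 fold change of *Pax2* was 0.39, 0.41 and 0.68, called in each.

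*Pax8* (chr2:24420560-24475599, minus strand) spanned 89.4 to 120 CPM in UNT kidneys, with a median of 99.6. PBS-treated kidneys spanned 154 to 213 CPM, with a median of 181. Every PBS-treated mouse thus lay above every UNT mouse. Its log2 fold change was 0.84 (SE 0.066, adjusted p = 4.7e-14), and with the covariate it stayed called at 0.56 (adjusted p = 2.8e-08). An opposite-strand transcript, *Gm13415*, covers 6.1% of the *Pax8* exon bases, and the strand setting of the counting is not given in the sources used here.

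*Lhx1*, *Sox4* and *Sox9* act while nephrons are patterned. *Lhx1* (chr11:84518284-84525535, minus strand) encodes a LIM homeobox protein of the early nephron. It had 13.5, 20.0 and 27.3 CPM in the lowest, median and highest UNT mouse and 6.63, 10.2 and 15.3 CPM in the PBS group. All but 1 of the 11 PBS-treated mice lay below the lowest UNT mouse. The difference in *Lhx1* on the log2 scale was -0.98 (SE 0.14, adjusted p = 4.2e-08) that moved to -0.43 (adjusted p = 0.015) with the no-gene share as a covariate.

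*Sox4*, an SRY-related factor of developing epithelium, had 7.78, 12.7 and 16.1 CPM in the lowest, median and highest UNT mouse. In PBS-treated kidneys these were 48.7, 97.9 and 115 CPM, so the lowest PBS-treated mouse stood well above the highest UNT mouse. The level was 7.45-fold higher (log2 fold change 2.90, SE 0.12, adjusted p = 3.4e-22). The lincRNA *Gm26735* lies on the opposite strand and covers 54.6% of the bases of the only *Sox4* exon (chr13:28948919-28953713, minus strand). Reads of the pair cannot be told apart unless the counting used strand, so the *Sox4* counts are uncertain to that extent.

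Among the 8 genes, the longest annotated 3′UTR of *Sox4* alone held a match to the seed of miR-17. The seed, bases 2 to 8 of the mature microRNA, is the part that RGLS4326 is directed against. Among the mature mouse microRNAs with this seed, 4 are shown as in RefSeq (GRCm38.p6), with the seed in capitals. The stretch of the *Sox4* 3′UTR that holds the match follows, on the transcript strand and with the matching bases in capitals.
mmu-miR-17-5p: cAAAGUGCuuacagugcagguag
mmu-miR-20a-5p: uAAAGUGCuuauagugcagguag
mmu-miR-93-5p: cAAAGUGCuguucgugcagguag
mmu-miR-106b-5p: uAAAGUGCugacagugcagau
*Sox4* 3′UTR: acatcttttttGCACTTTtttttataaagc

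The *Sox4* match occupies chr13:28949545-28949551 on the minus strand of GRCm38, starting at base 2148 of a 3′UTR of 2780 bases. It is a 7-base match to the whole seed (GCACTTT, called 7mer-m8). Matches were sought on the transcript strand as GCACTTTA, GCACTTT or CACTTTA, with overlapping matches counted under the longest. Among 14193 tested genes with an annotated 3′UTR, 21.2% held at least 1 such match and 10.5% held a 7mer-m8. *Sox4* did not pass the test between RGLS4326 and PBS (log2 fold change -0.098, 95% interval -0.32 to 0.12).

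*Sox9* (chr11:112782224-112787760, plus strand), the SRY-related factor of nephron formation and of tubule repair, was scarce in normal kidney. UNT mice had 0.413, 0.819 and 2.07 CPM in the lowest, median and highest mouse, from 12 to 82 reads per library. PBS-treated mice had 9.11, 14.96 and 25.6 CPM. No PBS-treated mouse came near the UNT range. The level was 14.9-fold higher (log2 fold change 3.90, SE 0.22, adjusted p = 3.3e-18). Known markers of injured tubules moved beside it: all 9 listed genes were called higher, with a summed level of 1901 to 3436 CPM in UNT and 12158 to 18778 CPM in PBS-treated kidneys. All 7 fibroblast and pericyte markers (523 to 1220 CPM in UNT and 2556 to 5438 CPM in PBS-treated kidneys, summed) and all 7 macrophage markers (95.2 to 170 and 838 to 2621 CPM) were called higher in the same kidneys. The part of these cells in the *Sox4* and *Sox9* results was not tested.

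*Hnf4a* (chr2:163506808-163572910, plus strand) encodes the nuclear receptor that drives the proximal tubule programme of transport and gluconeogenesis. Its level in UNT kidneys spanned 584 to 784 CPM, with a median of 706. In PBS-treated kidneys it spanned 149 to 368 CPM, with a median of 248. The highest PBS-treated mouse lay far under the lowest UNT mouse. The level was 2.82-fold lower (log2 fold change -1.49, SE 0.13, adjusted p = 4.0e-13). PBS-treated mice also differed more among themselves, with a coefficient of variation of 31.8% against 8.60% in UNT mice. All 10 proximal tubule markers were called lower beside it, their summed level being 30948 to 43358 CPM in UNT and 2064 to 7431 CPM in PBS-treated kidneys, and none of them was at 0 in any mouse. Their part in the *Hnf4a* result was not tested.

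*Tfcp2l1* and *Gata3* are factors of the distal nephron and collecting duct. *Tfcp2l1* (chr1:118627945-118685168, plus strand), a grainyhead-like factor needed for the mix of principal and intercalated cells, was among the most abundant of the 8 and spanned 609 to 1023 CPM in UNT kidneys with a median of 729. PBS-treated kidneys spanned 457 to 859 CPM with a median of 761. The ranges overlapped widely, with 1 PBS-treated mouse below the lowest UNT mouse. The log2 fold change was -0.033 with a 95% interval from -0.21 to 0.15 (adjusted p = 0.74), which leaves room for a difference of either sign within that interval.

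*Gata3* (chr2:9857078-9890034, minus strand) encodes a zinc finger protein of the nephric duct and principal cells that is also known in mesangial cells and T helper cells. It had 20.9, 24.3 and 30.3 CPM in the lowest, median and highest UNT mouse and 46.9, 62.2 and 84.9 CPM in the PBS group, without overlap. The level was 2.62-fold higher (log2 fold change 1.39, SE 0.10, adjusted p = 8.3e-15). All 8 principal cell markers were called higher in the same kidneys, with summed levels of 723 to 1121 CPM in UNT and 1254 to 2929 CPM in PBS. Markers of T cells and innate lymphoid cells rose as well, with all 7 measured genes called, but their summed level stayed low, at 3.4 to 6.4 CPM in UNT and 17.5 to 48.3 CPM in PBS, with none at 0 in any mouse. The mesangial list, which holds *Gata3* itself, moved both ways, with *Serpine2* (2.01) and *Pdgfrb* (1.11) higher and *Ren1* (-1.95) and *Itga8* (-0.29) lower. The part of these cell types in the *Gata3* result was not tested. Exons of *Gata3* overlap *Gm13256* on the opposite strand over 3.9% of their bases and *9230102O04Rik* on the same strand over 1.9%.

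**Figure D2:**
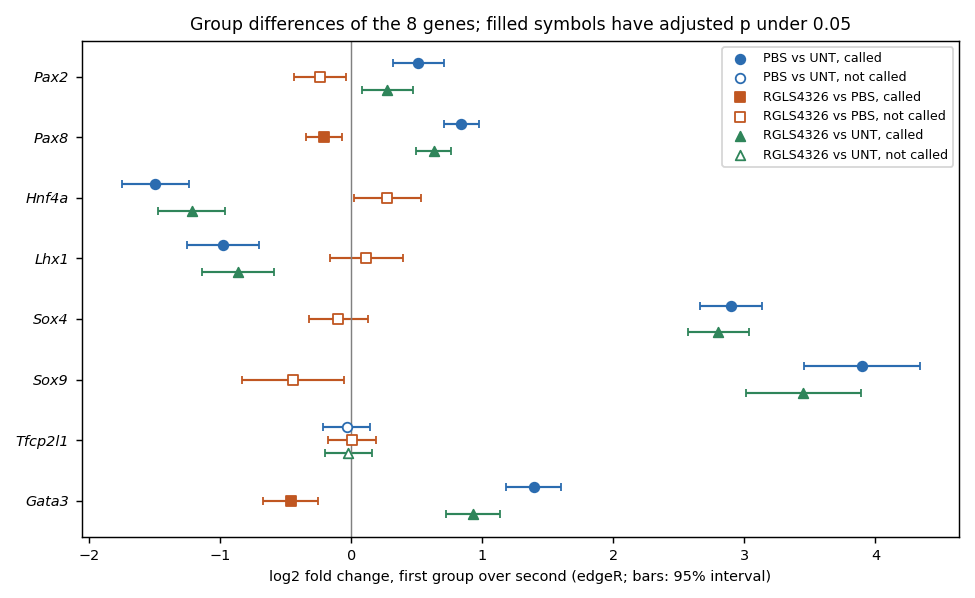
log2 fold change of the 8 genes (x axis) with 95% intervals as bars, for PBS vs UNT (circles), RGLS4326 vs PBS (squares) and RGLS4326 vs UNT (triangles), where filled symbols have an adjusted p under 0.05. *Sox9* (3.90) and *Sox4* (2.90) lie farthest to the right and *Hnf4a* (-1.49) farthest to the left in PBS vs UNT, and the RGLS4326 vs PBS values all lie within 0.5 of 0.

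In RGLS4326-treated kidneys *Gata3* and *Pax8* were lower than in PBS-treated kidneys and the other 6 did not pass the test. The count of 2 of 8 stands beside 33.8% of all tested genes, 15.3% called higher and 18.5% lower. No member separated the RGLS4326 and PBS groups without overlap, and 0.0639% of all tested genes did. The median absolute log2 fold change was 0.22 for the 8 genes and 0.18 for all tested genes.

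*Gata3* had 33.8, 51.1 and 62.1 CPM in the lowest, median and highest RGLS4326-treated mouse, compared with 46.9, 62.2 and 84.9 CPM in the PBS group. All 11 treated mice lay below the PBS mean, although the ranges overlapped. On the log2 scale *Gata3* differed by -0.46 (SE 0.10, 95% interval -0.67 to -0.25, adjusted p = 0.0032). It had the same sign in library series 1, 2 and 3 (-0.39, -0.42 and -0.56), each short of the threshold with 3 or 4 mice a group. Without the 4 RGLS4326 libraries with the highest no-gene share it was -0.42 (adjusted p = 0.047), and with that share as a covariate it was -0.33 (adjusted p = 0.12), no longer called. Of the 8 principal cell markers 5 were called lower with treatment and none higher, with a summed level of 689 to 2606 CPM in RGLS4326-treated kidneys. T cell and innate lymphoid cell markers were called lower in 5 of 7 cases. Without the 4 libraries 0 of the 8 and 0 of the 7 were called in edgeR (4 and 3 at an unadjusted p under 0.05), and every value in that fit was below 0. All 8 principal cell values lay closer to 0 there than over all libraries, with *Aqp2* at -0.38 against -0.78 and *Avpr2* at -0.44 against -0.62. With the no-gene share as a covariate 0 of the 8 and 0 of the 7 were called in edgeR (1 and 2 at an unadjusted p under 0.05). The part of these cells in the *Gata3* difference was not tested.

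*Pax8* spanned 128 to 188 CPM with a median of 152 in RGLS4326-treated kidneys, and 6 of the 11 mice lay under the lowest PBS-treated mouse. The log2 fold change was -0.21 (SE 0.067, 95% interval -0.34 to -0.073, adjusted p = 0.019). The 4 libraries with the high no-gene share had 128 to 147 CPM of *Pax8* and the other 7 had 150 to 188 CPM, with no overlap. Leaving out those 4 libraries gave -0.11 (adjusted p = 0.31), and the covariate gave -0.074 (adjusted p = 0.46), neither called. Within library series the values were -0.14, -0.31 and -0.21, of which only that of series 2 was called (adjusted p = 0.045).

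*Pax2* had 32.4, 44.4 and 62.4 CPM in the lowest, median and highest RGLS4326-treated mouse, and 5 of 11 mice lay below the lowest PBS-treated mouse. The log2 fold change was -0.24 (SE 0.097, adjusted p = 0.056). It was called in DESeq2 (-0.24, adjusted p = 0.047), with the library series as a term (-0.27, adjusted p = 0.026) and with sex as a term (-0.26, adjusted p = 0.028), and lay at -0.087 (adjusted p = 0.57) without the 4 libraries. Within library series 1, 2 and 3 it was -0.11, -0.45 (called, adjusted p = 0.021) and -0.25. Those 4 libraries had 32.4 to 42.0 CPM of *Pax2* and the other 7 had 41.1 to 62.4 CPM. *Lhx1* moved the other way, with 12.6 to 16.4 CPM in the 4 libraries and 7.83 to 12.3 CPM in the other 7, which did not overlap. Its log2 fold change of 0.11 (SE 0.14, adjusted p = 0.52) turned to -0.14 (adjusted p = 0.54) without them. *Hnf4a* had a median of 254 CPM in the 4 libraries and 316 CPM in the other 7, with overlap. Since 3 of the 4 libraries are all of the RGLS4326 libraries of series 2, their share and their series cannot be told apart for them.

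**Figure D3:**
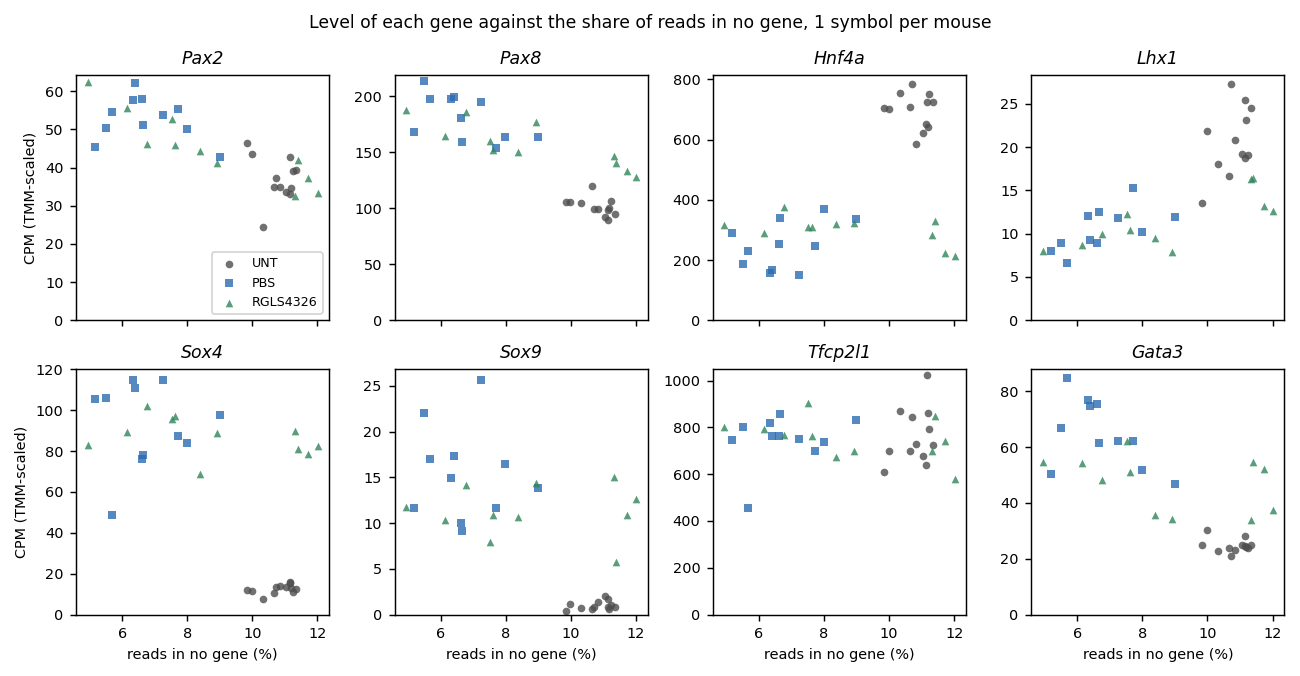
CPM of each gene (y axis, from 0) against the percentage of reads that fell in no gene (x axis), 1 symbol per mouse, with circles for UNT, squares for PBS and triangles for RGLS4326. The 4 triangles at 11.3% or more lie at the low end of *Pax2* and *Pax8* (at most 147 CPM for *Pax8*) and at the high end of *Lhx1* in their group, while their *Sox4* levels lie among those of the other 7 and their *Sox9* levels, 5.76 to 15.1 CPM, reach past the 7.92 to 14.3 CPM of the other 7 at both ends.

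Within groups the no-gene share was compared with each member by 24 correlations, over the 12 UNT, the 11 PBS and, in the RGLS4326 group, the 7 libraries that did not stand apart. None passed after adjustment. The strongest was *Pax2* over 7 RGLS4326 libraries (Pearson's r = -0.90, exact permutation p = 0.0054, adjusted p = 0.13; Spearman's rho = -0.96, exact permutation p = 0.0028, adjusted p = 0.067). Without the 2 libraries farthest from the median share, r was -0.67. In library series 1 and 3 it was -0.93 and -0.94, over 4 and 3 libraries. Since genes of a library share its depth and composition, these values describe the libraries.

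*Hnf4a*, *Sox9*, *Sox4*, *Lhx1* and *Tfcp2l1* did not pass the test of RGLS4326 vs PBS. *Hnf4a* had 212, 310 and 377 CPM in the lowest, median and highest treated mouse, and 9 of 11 treated mice lay above the PBS mean. Its log2 fold change was 0.28 (SE 0.13, 95% interval 0.020 to 0.53, adjusted p = 0.084), with 0.73, -0.034 and 0.23 in library series 1, 2 and 3. Leaving out PBS mouse 5, 7 or 8 brought it past the threshold (lowest adjusted p = 0.026). Of the 10 proximal tubule markers 6 were called higher with treatment, and their summed level in treated kidneys was 4085 to 7744 CPM. Without the 4 libraries 2 of the 10 were called, with 8 at an unadjusted p under 0.05 in both fits. *Slc34a1*, *Lrp2*, *Acsm2* and *Miox* lost their call at log2 fold changes of 0.70, 0.67, 0.68 and 0.76, against 0.64, 0.64, 0.65 and 0.76 over all libraries.

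*Sox9* spanned 5.76 to 15.1 CPM with a median of 10.9 in treated kidneys. All 11 treated mice lay below the PBS mean of 15.4 CPM, with a log2 fold change of -0.45 (SE 0.19, 95% interval -0.83 to -0.058, adjusted p = 0.067). It was negative in each library series (-0.61, -0.51 and -0.23), and passed the threshold without PBS mouse 8 or PBS mouse 10 (lowest adjusted p = 0.038). *Sox4* spanned 68.7 to 102 CPM with a median of 88.9 in treated kidneys, inside the PBS range at both ends, and its log2 fold change was -0.32, -0.14 and 0.15 in library series 1, 2 and 3. *Tfcp2l1* spanned 577 to 905 CPM with a median of 764 and a log2 fold change of 0.0096 (95% interval -0.17 to 0.19; adjusted p = 0.94).

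**Figure D4:**
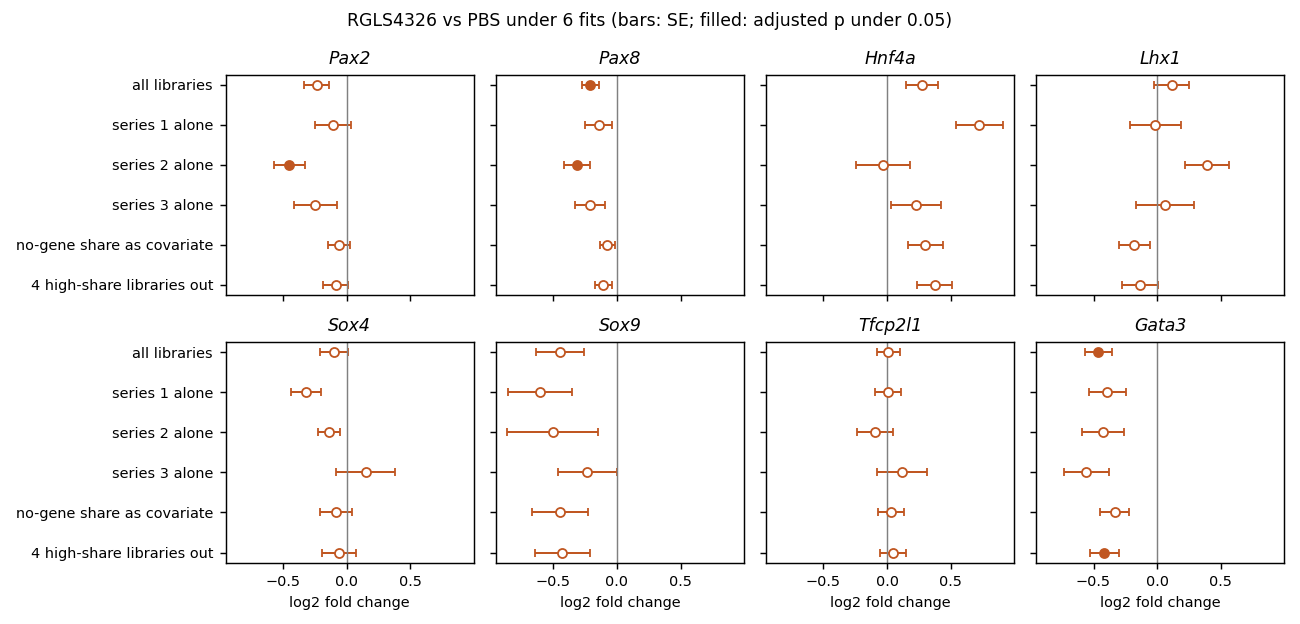
log2 fold change of RGLS4326 vs PBS (x axis) for the 8 genes under 6 fits, with bars for the SE and filled symbols for an adjusted p under 0.05: all libraries, each of the 3 library series alone, the no-gene share as a covariate, and the 4 RGLS4326 libraries with the highest share left out. *Pax2*, *Pax8*, *Sox9* and *Gata3* are negative under all 6, with *Pax2* at -0.064 and -0.087 and *Pax8* at -0.074 and -0.11 in the last pair of fits, and *Hnf4a* ranges from -0.034 to 0.73.

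Compared with UNT kidneys, RGLS4326-treated kidneys kept the same 7 members called, 5 higher and 2 lower, against 77.7% of all tested genes called, 40.8% higher and 36.9% lower. For 5 members the groups did not overlap, as for 36.7% of all tested genes. The log2 fold changes were 3.45 for *Sox9*, 2.80 for *Sox4*, 0.93 for *Gata3*, 0.63 for *Pax8*, 0.28 for *Pax2*, -0.86 for *Lhx1* and -1.22 for *Hnf4a*. These share the treated libraries with the treatment comparison and the UNT libraries with the disease comparison, so they are not independent of either. *Pax2* was the weakest of the calls (adjusted p = 0.0092), at 0.063 (adjusted p = 0.51) with the no-gene share as a covariate and at 0.43 (adjusted p = 0.00013) without the 4 libraries. *Lhx1* in treated mice stayed below the lowest UNT mouse in 9 of 11 cases.

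Levels of different genes were compared as RPKM, the CPM divided by the exon length in kilobases, with exon lengths from GENCODE M21, which may differ from the annotation used for counting. In UNT kidneys the order was *Hnf4a* (144 ± 12.4, SD), *Tfcp2l1* (81.0 ± 12.5), *Pax8* (16.7 ± 1.31), *Pax2* (6.84 ± 1.08), *Gata3* (6.22 ± 0.617), *Lhx1* (5.09 ± 0.973), *Sox4* (2.61 ± 0.480) and *Sox9* (0.245 ± 0.119). The mean ± SD ranges of *Pax2*, *Gata3* and *Lhx1* overlapped one another. In PBS-treated kidneys the order was *Tfcp2l1* (79.2 ± 11.3), *Hnf4a* (51.2 ± 16.3), *Pax8* (29.9 ± 3.34), *Sox4* (19.4 ± 4.28), *Gata3* (16.3 ± 3.06), *Pax2* (9.76 ± 1.04), *Sox9* (3.73 ± 1.22) and *Lhx1* (2.58 ± 0.609). *Sox4* thus stood above *Gata3*, *Pax2* and *Lhx1* by mean level in PBS-treated kidneys and below all of them in UNT kidneys, although the mean ± SD ranges of *Sox4* and *Gata3* overlapped there, as did those of *Sox9* and *Lhx1*. RGLS4326-treated kidneys had the PBS order except that *Lhx1* (2.80 ± 0.747) and *Sox9* (2.74 ± 0.672), the lowest pair, changed places with overlapping ranges.

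The wider set of nephron factors gives the context of these 8. Of 43 other transcription factor genes listed by nephron segment, 41 were tested. In PBS-treated compared with UNT kidneys 17 of them were higher, 21 lower and 3 not called. Beside these counts, 82.1% of all tested genes were called in this comparison, 43.1% higher and 39.0% lower. *Six2*, which marks the progenitors of the fetal kidney, and *Cdx2* did not pass the filter on low counts. Directions are given by segment, and a difference between segments was not tested. All 8 factors of the loop of Henle and distal tubule were lower, by a log2 fold change of -0.32 to -1.88, with *Esrrb*, an oestrogen-related receptor, the lowest. Of 6 thick ascending limb markers 5 were lower and 1, *Cldn16* (0.59), higher, and all 5 distal convoluted tubule markers were lower. Median summed levels in UNT and PBS-treated kidneys were 7174 and 3709 CPM for the first list and 2582 and 483.5 CPM for the second. The part of these cells in the factor results was not tested. Of 7 tested factors of the whole nephron or proximal tubule 6 were lower, *Klf15* the most (-2.07). In the collecting duct list 9 of 12 were higher, led by *Elf3* (2.92), an epithelial ETS factor, and *Emx1* (-1.77) and *Sim1* (-0.72) were lower. Early nephron factors were split, with 5 of 9 higher, led by *Sox11* (1.81), and 3 lower. Of 5 podocyte factors 2 were higher, among them *Tcf21* (1.198), and 2 lower.

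With RGLS4326, 6 of the 41 were higher and 10 lower than with PBS, a count near the background of 33.8% of all tested genes called in this comparison. The collecting duct list held 7 of the 10 lower genes, with *Elf3* at -0.72 (SE 0.15, adjusted p = 0.0018), *Gata2*, a relative of *Gata3*, at -0.40 (SE 0.097, adjusted p = 0.0046) and *Hoxb7*, a ureteric bud gene, at -0.30 (SE 0.073, adjusted p = 0.0051), and 1 higher gene, *Sim1*. Higher genes in other segments included *Esrrg* (0.44, adjusted p = 0.0075), *Maf* (0.39, adjusted p = 0.024) and *Hoxd11* (0.37, adjusted p = 0.019). Without the 4 RGLS4326 libraries 3 of the 41 were called, *Dmrt2* (-0.60) and *Foxi1* (-0.64) lower and *Esrrb* (0.68) higher. In that fit *Elf3* lay at -0.61 (adjusted p = 0.053), *Gata2* at -0.32 (adjusted p = 0.075), *Hoxb7* at -0.24 (adjusted p = 0.088) and *Sim1* at 0.25 (adjusted p = 0.26). There *Esrrg* lay at 0.44 (adjusted p = 0.070), *Maf* at 0.35 (adjusted p = 0.15) and *Hoxd11* at 0.097 (adjusted p = 0.57). With the no-gene share as a covariate 1 of the 41 was called.

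**Figure D5:**
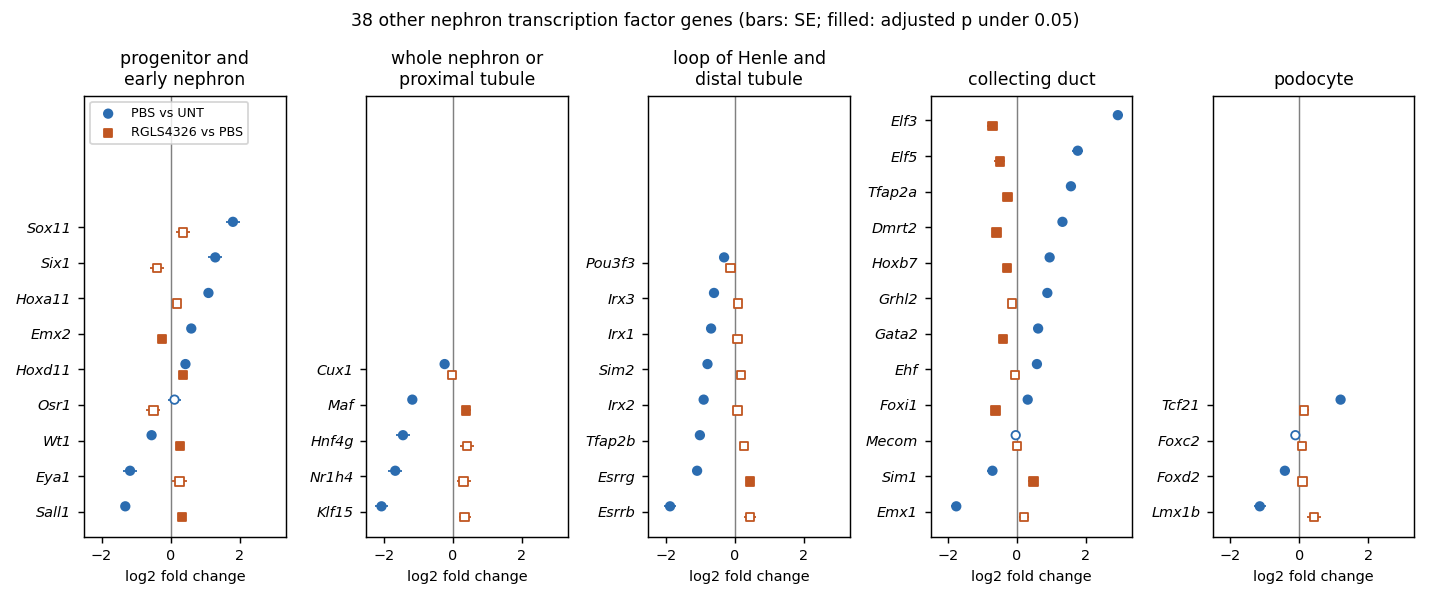
log2 fold change (x axis) of 38 other nephron transcription factor genes by segment, for PBS vs UNT (circles) and RGLS4326 vs PBS (squares), with bars for the SE and filled symbols for an adjusted p under 0.05. All 8 loop and distal tubule circles lie left of 0 and 9 of 12 collecting duct circles are filled to its right, up to 2.92 for *Elf3*, while the squares stay between -0.72 and 0.47.

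Genes known from other work to be regulated by the members were read beside them. All 10 listed genes regulated by *Hnf4a* were lower in PBS-treated than in UNT kidneys, with a median log2 fold change of -2.26 against 0.038 for all tested genes. They included the gluconeogenic genes *G6pc* (-3.28, SE 0.34, adjusted p = 5.3e-11) and *Fbp1* (-2.39, SE 0.17, adjusted p = 2.1e-15) and the endocytic receptor gene *Cubn* (-2.13, SE 0.17, adjusted p = 7.6e-14). Of all tested genes 39.0% were called lower in this comparison. The 10 proximal tubule markers were all called lower as well, with a median log2 fold change of -2.75. Whether the fall is particular to genes regulated by *Hnf4a* was not tested. With RGLS4326, 4 of the 10 genes regulated by *Hnf4a* were called higher than with PBS, against 15.3% of all tested genes, and 6 were not called. The 4 were *G6pc* (1.01, adjusted p = 0.016), *Cubn* (0.64, adjusted p = 0.0065), the glucose transporter gene *Slc2a2* (0.55, adjusted p = 0.017) and *Fbp1* (0.43, adjusted p = 0.040). Without the 4 libraries only *Cubn* stayed called (0.70, adjusted p = 0.049), with *G6pc* at 1.16 (adjusted p = 0.059), *Slc2a2* at 0.60 (adjusted p = 0.081) and *Fbp1* at 0.54 (adjusted p = 0.081), and with the covariate 0 of the 10 were called in edgeR (4 at an unadjusted p under 0.05).

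In PBS vs UNT 43.1% of all tested genes were called higher and 39.0% lower, shares that stand beside each of the following lists. Of 7 genes regulated by *Pax2* and *Pax8*, a list that holds *Gata3* and *Lhx1* themselves, 4 were higher and 2 lower. *Wnt4*, the signal for tubule formation, was the highest (2.44, SE 0.13, adjusted p = 1.7e-18) and fell with treatment (-0.49, SE 0.13, adjusted p = 0.0066), a call lost without the 4 libraries (-0.49, adjusted p = 0.061). Around *Tfcp2l1*, whose own level did not pass the test, 5 of 8 regulated genes were lower, among them the intercalated cell exchanger genes *Slc4a1* (-2.46) and *Slc4a9* (-1.89), and *Kit* (0.82), *Jag1* (0.38) and *Foxi1* (0.31) were higher. Of 7 intercalated cell markers 5 were called lower and 1, *Rhcg* (0.71), higher, with a median log2 fold change of -0.96. Their summed level was 533 to 736 CPM in UNT and 427 to 638 CPM in PBS-treated kidneys. Of 6 tested genes regulated by *Sox9*, 3 were higher and 2 lower, and its cartilage targets *Col2a1*, *Acan* and *Col9a1* did not pass the filter on low counts.

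Among mice of the same group 84 pairs of members were compared, 28 in each group. Of these 21 had an unadjusted permutation p under 0.05 and 2 passed after adjustment, *Pax2* with *Gata3* in PBS-treated mice (Pearson's r = 0.84, permutation p = 0.0012, adjusted p = 0.048; Spearman's rho = 0.79, permutation p = 0.0054, adjusted p = 0.10) and *Tfcp2l1* with *Gata3* in RGLS4326-treated mice (r = 0.82, permutation p = 0.0009, adjusted p = 0.048; rho = 0.87, permutation p = 0.0010, adjusted p = 0.086). Without the 2 mice farthest from the median of *Pax2* and *Tfcp2l1*, r was 0.65 and 0.88. Both correlations were positive in each library series, at 0.64 or more for *Pax2* with *Gata3* and 0.75 or more for *Tfcp2l1* with *Gata3*. *Pax8* and *Hnf4a* had opposite signs in the groups, r = -0.81 (permutation p = 0.0049, adjusted p = 0.14) in PBS-treated and 0.75 (permutation p = 0.0069, adjusted p = 0.15) in RGLS4326-treated mice, neither of which passed, and the difference was not tested. The RGLS4326 values include the 4 libraries with the high no-gene share. Over the other 7, r was 0.51 for *Pax8* with *Hnf4a* (exact permutation p = 0.27, adjusted p = 0.53 over 28 pairs) and 0.94 for *Tfcp2l1* with *Gata3* (exact permutation p = 0.0016, adjusted p = 0.044), and Spearman's rho of the same pairs was 0.32 (exact permutation p = 0.50, adjusted p = 0.74) and 0.93 (exact permutation p = 0.0067, adjusted p = 0.19).

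Genes whose levels followed each member most closely were found by the correlation of log2(CPM + 1) over all 34 mice after the mean of each group was removed, given without a test because mice share the composition of their libraries. For *Hnf4a* they were *Slc27a2* (r = 0.93), *Slc23a1* (0.90) and *Cat* (0.90), genes of fatty acid, vitamin C and peroxide handling in the proximal tubule. For *Gata3* they were *Il17re* (0.89), *Dbndd2* (0.86) and the vasopressin receptor gene *Avpr2* (0.85), a principal cell marker. *Sox9* went with *Runx1* (0.77), *Itgb3* (0.77) and *Il1rn* (0.72), and *Sox4* with *Plxna1* (0.87), *Fat1* (0.85) and *Phf2* (0.85). *Tfcp2l1* went with *Exph5* (0.86), *Iqgap2* (0.85) and *Phactr4* (0.84). The closest to *Pax2* were *Abhd16a* (0.89), *Tsc22d4* (0.86) and *Fam171a2* (0.85), to *Pax8* *Gorasp2* (0.87), *Rmnd5b* (0.86) and *Ppm1g* (0.85), and to *Lhx1* *Mphosph9* (0.76), *Med12* (0.76) and *Chd6* (0.75).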

How the data were processed

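The authors prepared stranded mRNA libraries from kidney (TruSeq), sequenced paired ends on an Illumina NextSeq and trimmed them with Trim Galore. STAR placed the reads on GRCm38, and HTSeq counted those with a unique position per gene (version 0.6.1, per the submitters' processing notes). The deposited values are raw counts per gene and mouse, not normalized or pooled. The gene annotation and strand setting are not given in the sources used here. Reads in no gene were left out of library sizes and tests.

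Counts were scaled by TMM, filtered with filterByExpr (15644 genes kept) and compared by the edgeR 4.0.16 quasi-likelihood test (R 4.3.3) in a single fit of 34 libraries and 3 groups, two-sided, with Benjamini-Hochberg adjustment over all tested genes. Mice are the replicates. CPM are TMM-scaled, from 17603122 to 54981992 reads in genes per library, and the lowest count of a member in a library was 12 (*Sox9*, UNT). No libraries were identical (0 pairs). Sex was read from *Ddx3y* (present in 6 PBS, 5 RGLS4326 and 6 UNT mice). DESeq2 1.42.0 was an alternative. Correlations used log2(CPM + 1) and two-sided permutation tests with 100000 resamples, or all orders for groups under 10. The procedure was tested on simulated data. Locations come from GENCODE M21, microRNAs from RefSeq. Some genes counted in the wider list are not reported here by name or plotted.

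Members and gene lists were chosen with earlier results of these data known. In the text all 8 members were named, with the called gene of largest change per segment of the wider list in PBS vs UNT and RGLS4326 vs PBS, and the 3 genes most correlated with each member. Other genes named as examples of a list were chosen after their values were seen.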

Additional observations from a re-analysis of the deposited data

How the results depend on the processing

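Calls of the members in PBS vs UNT and RGLS4326 vs UNT were the same under all alternatives, except for *Pax2* as given above (for RGLS4326 vs UNT also 0.28, adjusted p = 0.067, in library series 1 and -0.043 in series 2). For RGLS4326 vs PBS the number of members called fell from 2 to 0 in library series 1 and 3 and with the no-gene share as a covariate (4, 1 and 3 at an unadjusted p under 0.05 in edgeR; DESeq2 called 3 of 8 over all libraries), and to 1 without the 4 RGLS4326 libraries over 10% reads in no gene, a choice made after seeing the data. The wider list fell from 16 called to 2, 6 and 0 in series 1, 2 and 3 (8 unadjusted in series 3), to 1 with the covariate and to 3 without the 4 libraries. Over all genes, 5280 calls became 54, 4065 and 0 in the series (2826 unadjusted in series 3), 89 with the covariate and 332 without the 4 libraries.

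Signs turned for *Hnf4a* (RGLS4326 vs PBS, 0.28 over all libraries) to -0.034 in series 2 and for *Pax2* in RGLS4326 vs UNT, as above. In RGLS4326 vs PBS they also turned for *Lhx1* (0.11) to -0.015 in series 1, -0.18 with the covariate and -0.14 without the 4 libraries, and for *Sox4* (-0.098) to 0.15 in series 3. *Tfcp2l1* turned to 0.053 and 0.042 in series 1 and 2 (PBS vs UNT), to -0.096 in series 2 and -0.00014 with sex as a term (RGLS4326 vs PBS), and to 0.060 in series 1 and 0.017 without the 4 libraries (RGLS4326 vs UNT). The cause was not tested. Leaving out each of 34 libraries gave 2 to 4 members called for RGLS4326 vs PBS (4 without PBS mouse 5 or 8). *Pax2* was called there without RGLS4326 mouse 4, 8 or 10, PBS mouse 1 or 5 or UNT mouse 10 (lowest adjusted p = 0.015). *Tfcp2l1* spanned -0.059 to 0.012, -0.033 to 0.043 and -0.052 to 0.021 in the 3 comparisons.

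With the replicate number as a block the members called were 7, 2 and 7, and the signs of *Tfcp2l1* turned to 0.0080 (PBS vs UNT) and 0.020 (RGLS4326 vs UNT). Of 33 same-numbered pairs 10 had a correlation of deviations over 0.1 (median -0.018, range -0.42 to 0.45), and 5 matched their own number best. These values cannot decide whether the numbers pair the mice, because some same-numbered mice lie in different library series.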

Other observations

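Close relatives of the members were compared in the same fit. Of 18 paralogues 11 were tested, and in PBS-treated kidneys 6 were higher and 4 lower than in UNT kidneys, against 43.1% and 39.0% of all tested genes. In RGLS4326-treated compared with PBS-treated kidneys 0 were higher and 3 lower, against 15.3% and 18.5% of all tested genes. Of these 11, 1 was lower without the 4 RGLS4326 libraries with the highest no-gene share, and 0 were called with that share as a covariate. *Sox8*, which belongs with *Sox9* to the same SOX subgroup, was higher by 3.50 on the log2 scale (SE 0.18, adjusted p = 2.9e-19), from 0.669 ± 0.220 to 7.71 ± 2.34 CPM (SD). It was lower with RGLS4326 (-0.60, SE 0.16, adjusted p = 0.0070, and -0.69, adjusted p = 0.042, without those 4 libraries). With the covariate it lay at -0.65 (adjusted p = 0.081), no longer called. *Gata6* (1.40) was higher and *Gata5* (-1.90) lower in PBS-treated kidneys, so that members of the GATA family moved in opposite directions. *Tfcp2* (-0.80) and *Ubp1* (-0.55), the relatives of *Tfcp2l1*, and *Hnf4g* (-1.45), the relative of *Hnf4a*, were lower. These genes were chosen as examples after their values were seen.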
